A study of Mus musculus with 18 samples.

Results

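Meox1 and Eomes are transcription factor genes of the early mesoderm, and both were followed here in every RNA-seq library of a mouse embryonic stem cell (ESC) neural differentiation with and without Zeb2. They are 2 of the 10965 genes in the deposited expression table and were taken by their gene symbols. They were chosen by the measured difference between the genotypes, Meox1 being lower and Eomes higher in cells that lacked Zeb2, so that difference is given below as a description without a test. The control cells (Ctrl) carried Zeb2 fl/fl alleles, with both copies floxed and still intact, and the knockout cells (KO) were Zeb2 -/-. All libraries are labelled strain CD1. Ground-state ESCs (d0) had been kept without feeder cells in 2i+LIF, that is the inhibitors PD0325901 and CHIR99021 with leukaemia inhibitory factor. From d0 the cells of both genotypes were grown as embryoid bodies in serum medium, and the d4 libraries are labelled multipotent progenitor. After d4 they were grown in N2B27 medium with 500 nM retinoic acid, and the d6 libraries are labelled neural progenitor. Each of the 6 groups held 3 libraries, described as biological replicates. How many separate knockout lines entered sequencing is not given in the sources used here, so the p-values below measure the spread between these libraries.

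Zeb2 encodes a zinc finger DNA-binding protein that interacts with SMADs, the effectors of Nodal and BMP signalling, and it is known as a repressor of epithelial genes. Eomes encodes a T-box factor that Nodal signalling turns on in the epiblast around the primitive streak, where it acts in the formation of definitive endoderm and cardiac mesoderm. It is also used in trophoblast, in visceral endoderm and in intermediate progenitors of the cortex. Meox1 encodes a homeodomain factor of the paraxial mesoderm that acts, with its relative Meox2, in building the somites, the blocks from which vertebrae and skeletal muscle form.

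On GRCm38, Meox1 (ENSMUSG00000001493) lies on the minus strand of chromosome 11 from 101877510 to 101894374, and Eomes (ENSMUSG00000032446) on the plus strand of chromosome 9 from 118478212 to 118486132. Each is overlapped by an antisense noncoding gene in the GENCODE annotation. Gm11551 shares 0 exonic bases with Meox1, whereas Gm33460 shares 118 exonic bases with Eomes. Whether reads were counted by strand is not stated, so reads from those shared bases cannot be assigned to Eomes or to Gm33460.

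The upstream sequence of Eomes is shown because Zeb2 binds E-box type sites whose core is CACCT. No promoter window was available for Meox1, so its upstream sequence was not searched. The RefSeq promoter table (GRCm38.p6) held 1 window for Eomes, and the 250 bases before its start site, on the plus strand at chr9:118477939-118478188, are printed 5′ to 3′ with the CACCT core in capitals.
Eomes promoter: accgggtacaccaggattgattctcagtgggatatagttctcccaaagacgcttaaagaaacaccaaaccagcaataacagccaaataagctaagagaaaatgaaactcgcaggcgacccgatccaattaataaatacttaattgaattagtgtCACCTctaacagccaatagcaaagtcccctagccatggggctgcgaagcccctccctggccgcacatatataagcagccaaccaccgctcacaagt
The 300-base window, which adds the first 50 transcribed bases, held 1 CACCT when both strands were searched, on the strand of the gene from 96 to 92 bases before the start. It held 0 copies of the longer CACCTG, which contains CACCT. Of all 32851 promoter windows of that length, 51.9% held CACCT on either strand and 20.2% held CACCTG, so a single CACCT in a promoter is common. Windows with 2 or more CACCT made up 18.2%. The study itself searched for CACCT and CACCTG as a spaced pair over a wider stretch around the start, which was not examined here. A match of letters is a description and not a measured binding site.

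Zeb2 itself was lower in the KO libraries on every day. In Ctrl its mean level was 0.129 TPM on d0, 1.36 on d4 and 7.66 on d6, against 0.0216, 0.164 and 0.681 in KO, and no KO library overlapped the Ctrl libraries of its day. TPM is the share of a library's transcripts that comes from a gene, corrected for its length and scaled to the same total in every library. The whole reads behind each value could be recovered from the TPM, and each library held 9624677 to 15621169 reads on the listed genes (median 12133852), and at these depths a single read on a 1 kb gene came to between 0.238 and 0.371 TPM. The samples are bulk RNA, in which fewer cells expressing a gene and less of its RNA in each cell cannot be told apart. The table keeps genes with at least 5 TPM in at least 3 libraries. Meox1 passed that limit only through the 3 Ctrl libraries of d4 and the 3 of d6, and Eomes only through the 3 KO libraries of d0 and the 3 of d6.

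Meox1 was nearly silent in ground-state ESCs of both genotypes and was switched on in Ctrl only. On d0 the Ctrl libraries held 0.536, 0.128 and 0.711 TPM, from 4, 0 and 4 reads, and the KO libraries held 0.936, 0.107 and 0.474 TPM, from 6, 0 and 2 reads. The values of both genotypes overlapped and rest on a handful of reads. A library with 0 reads has a small TPM because 1 read had been added to every gene before scaling. On d4, Ctrl reached 185, 209 and 229 TPM, from 1676, 1746 and 1942 reads. The KO libraries of the same day stood at 0.605, 0.889 and 1.26 TPM, from 3, 6 and 7 reads. On d6, after 2 days in retinoic acid, Ctrl held 182, 129 and 149 TPM and KO 0.848, 0.643 and 0.672 TPM. On both days every Ctrl library was above every KO library by more than a factor of 100.

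As group means, Meox1 differed between KO and Ctrl by 0.03 on d0, by -6.78 on d4 and by -6.47 on d6, on the log2(TPM + 1) scale (SE 0.204). The median of all genes differed by -0.07, -0.16 and -0.14 on the same days. The ratio of the mean TPM was 227 on d4 and 212 on d6. These folds have a soft denominator, since all 3 KO libraries of d4 together held 16 Meox1 reads, with a 95% exact Poisson interval of 9.15 to 26.0 reads that covers counting error only, and those of d6 held 13 (6.92 to 22.2). By comparison, the 3 Ctrl libraries held 5364 reads on d4 and 3274 on d6. The size of the log2 difference depends on the constant added before the log, and at a constant of 0.1 it was -7.72 on d4 while at a constant of 5 it was -5.17.

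Ordered by mean level, Meox1 was highest in Ctrl d4 (208 ± 22.2 TPM, SD, n = 3), followed by Ctrl d6 (153 ± 26.8). The libraries of these groups did not overlap, although their difference between days was not called. The next group, KO d4 (0.917 ± 0.326), was lower than Ctrl d6 by a factor of 167. KO d6 (0.721 ± 0.111), KO d0 (0.505 ± 0.415) and Ctrl d0 (0.458 ± 0.299) each overlapped the group above them. Meox1 in KO embryoid bodies was therefore not separable, at this depth, from its level in undifferentiated ESCs.

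The change between days was tested within each genotype with limma on log2(TPM + 1), p-values were adjusted over all 10965 genes by the Benjamini-Hochberg method, and genes with an adjusted p below 0.01 were called. These contrasts use the same libraries as the comparison by which both genes were chosen. Meox1 entered the table only through Ctrl d4 and Ctrl d6, so its Ctrl differences from d0, 7.18 on d4 and 6.73 on d6 on the log2 scale, are given without a test. From d4 to d6 in Ctrl it differed by -0.45 (adjusted p = 0.075), where 21.5% of all genes were called lower, and the call depended on the scale, since it passed at a constant of 5 (adjusted p = 0.00242) and in a fit of the recovered reads (adjusted p = 0.00321). In KO none of the 3 day contrasts of Meox1 was called, where 56.7% of all genes were called in either direction from d0 to d4, 41.4% from d4 to d6 and 67.7% from d0 to d6. The KO contrasts of Meox1 were 0.37 from d0 to d4 (adjusted p = 0.121), -0.14 from d4 to d6 (adjusted p = 0.586) and 0.23 from d0 to d6 (adjusted p = 0.323). After quantile normalization the first and the last of them were negative, at -0.18 and -0.43. Meox1 was chosen for a lower level in KO, and its KO libraries held only 0 to 7 reads each. The lack of a call is therefore tied to the choice and to this depth. These contrasts cannot decide whether Meox1 changed in KO.

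**Figure D1:**
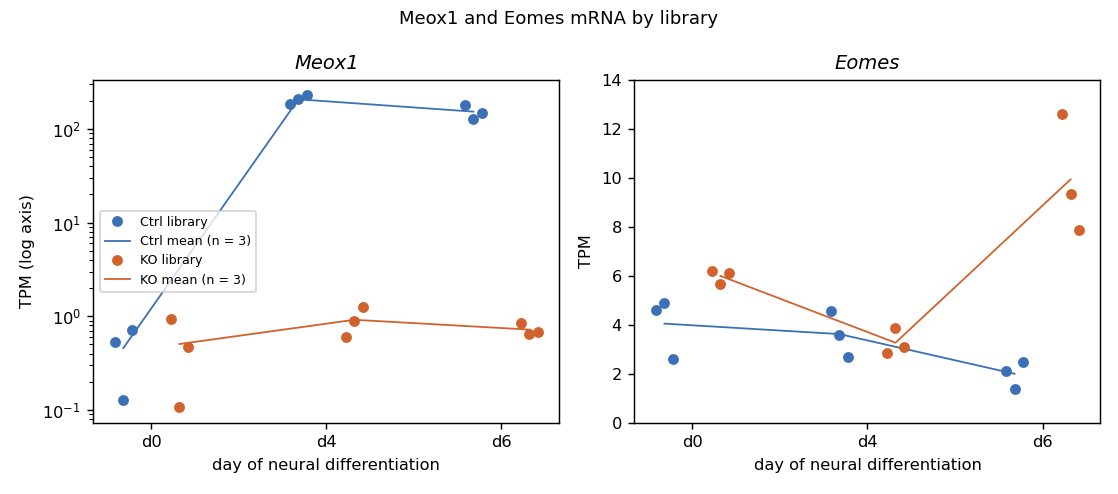
Level of Meox1 (left, TPM on a log axis) and of Eomes (right, TPM on a linear axis from 0) by day of neural differentiation, with each of the 18 libraries as a point and the mean of 3 libraries of a group joined by lines. Meox1 stands above 100 TPM in all Ctrl libraries of d4 and d6 and near or below 1 TPM elsewhere, while the Eomes libraries of KO d6, from 7.85 to 12.6 TPM, stand above all others.

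Eomes was a low but readable gene in all 18 libraries, and its levels moved over a much narrower range. Ground-state Ctrl cells held 4.62, 4.9 and 2.62 TPM, from 137, 122 and 58 reads. Ground-state KO cells held 6.21, 5.66 and 6.11 TPM, from 148, 169 and 123 reads. All 3 KO libraries were above all 3 Ctrl libraries, and the third Ctrl library was the lowest of its group. On d4 the Ctrl libraries held 4.58, 3.59 and 2.69 TPM and the KO libraries 2.83, 3.88 and 3.09 TPM. These values overlapped, with all 3 KO libraries inside the Ctrl range. On d6 Ctrl held 2.13, 1.39 and 2.48 TPM, from 40, 35 and 60 reads, and KO held 12.6, 9.34 and 7.85 TPM, from 285, 232 and 186 reads. The lowest KO library of d6 was above the highest Ctrl library of any day, at 4.9 TPM.

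The difference between KO and Ctrl in Eomes was 0.50 on d0, -0.10 on d4 and 1.86 on d6 on the log2(TPM + 1) scale (SE 0.216). The mean TPM of KO was 1.48 times that of Ctrl on d0 and 4.97 times on d6. Without Ctrl d0 replicate 3 the ratio on d0 was 1.26, and without replicate 2 it was 1.66. The sign on d4 has no meaning at this spread, since after rescaling by median ratios the difference was 0.03 and after quantile normalization 0.27. On d6 it was between 1.08, at a constant of 5, and 2.45, in the fit of the recovered reads. Both genes were chosen by the difference between the genotypes, so a lack of overlap between their libraries is only a description. How many of all genes had no overlap was not counted, so it cannot be said how common this was. By the call, which is another measure, 2960 of all 10965 genes differed between the genotypes on d0, 4988 on d4 and 5731 on d6.

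In order of mean level, Eomes was highest in KO d6 (9.93 ± 2.44 TPM, SD, n = 3), then in KO d0 (5.99 ± 0.291) and Ctrl d0 (4.04 ± 1.24), with no overlap between successive groups. Ctrl d4 (3.62 ± 0.944) overlapped Ctrl d0, and KO d4 (3.27 ± 0.548) overlapped Ctrl d4. Ctrl d6 was the lowest (2.0 ± 0.557) and did not overlap KO d4.

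The profile of Eomes over time differed in shape between the genotypes, a difference that was not itself tested. Eomes entered the table only through KO d0 and KO d6, so its KO differences on the log2 scale, -0.72 from d0 to d4 and 1.34 from d4 to d6, are given without a test. The KO libraries of d4 were below all those of d0 and of d6. Over the whole course in KO, between the groups that both passed the limit, the difference was 0.62 (adjusted p = 0.0158), where 40.3% of all genes were called higher. It was not called here, but was in the fit of the recovered reads (adjusted p = 0.00223), at a constant of 5 (adjusted p = 0.00458), without Ctrl d0 replicate 3 (adjusted p = 0.0079) and without KO d6 replicate 3 (adjusted p = 0.0084).

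In Ctrl, Eomes was lowest on d6. From d0 to d6 it fell by 0.73 (adjusted p = 0.00538), and 25.8% of all genes were called lower over these days. Eomes was chosen for a higher level in KO than in Ctrl, and the low Ctrl d6 values are part of that difference. This call is therefore tied to the choice and is no separate support. The call was lost at a constant of 5 (adjusted p = 0.0126), when only the pair of groups compared was fitted (adjusted p = 0.0225), and without replicate 1 or 2 of Ctrl d0 or of Ctrl d6 (adjusted p from 0.0104 to 0.0338). The steps within it, -0.11 from d0 to d4 (adjusted p = 0.643) and -0.62 from d4 to d6 (adjusted p = 0.0226), were not called, although both were after quantile normalization (adjusted p = 0.00173 and 0.00554). The sign of the first turned without Ctrl d0 replicate 2 or without Ctrl d4 replicate 3, to 0.01 and 0.04.

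Per length, the balance of both transcripts was opposite in the 2 genotypes once differentiation had begun. In Ctrl the mean TPM of Meox1 was 57.5 times that of Eomes on d4 and 76.6 times on d6. In KO it was Eomes that was more abundant, by a factor of 3.56 on d4 and 13.8 on d6. The same order held in ground-state cells of both genotypes, with factors of 8.83 in Ctrl and 11.9 in KO. The length behind the deposited Eomes values was 7142 bp, against an exonic length of 4155 bp in GENCODE, whereas for Meox1 both were 2228 bp. At the GENCODE length the Eomes levels would be 1.72 times higher, the Ctrl d4 ratio would be 33.4 and the KO d6 ratio 23.7.

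The other mesoderm genes were counted against all genes of the table, of which more were lower than higher in KO. Of 67 genes on 8 lists of mesoderm, Nodal pathway and other Eomes-expressing lineages in the table, 7 were called higher and 12 lower in KO on d0, where 10.6% of all genes were called higher and 16.4% lower. Of 21 listed genes of the paraxial mesoderm and somites, 10 were in the table. In KO 5 of these were called lower on d4 and 7 on d6, and 0 were called higher on either day. For comparison, 32.7% of all genes were called lower on d4 and 34.3% on d6, while 12.7% and 17.9% were called higher. The balance of these calls over all genes depends on the scaling. Of all genes called, 28.0% on d4 and 34.3% on d6 were higher in KO, against 49.6% and 49.9% after rescaling by median ratios, which moved the median of all genes to 0.00 and 0.01. The limit of the table bears on these counts, since 16 of the 29 listed genes called lower on d4 and 21 of the 38 on d6, Pax3, Pax7, Lfng, Dll1 and Foxc2 among them, would not have passed it through KO libraries alone. Of the listed genes called higher, Fgf8 on both days and Bmp8b on d6 would not have passed it through Ctrl libraries alone. The median difference of the 10 genes was -0.64 on d4 and -1.44 on d6. After quantile normalization 3 genes were called lower on d4 in place of 5.

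Pax3 and Pax7, paired-box factors of the dermomyotome that are also expressed in the dorsal neural tube, were among the genes that were lowest in KO. On d6 Pax3 stood at 17.7 ± 2.30 TPM in Ctrl and 0.647 ± 0.107 in KO (difference -3.50, SE 0.13), and Pax7 at 12.5 ± 2.38 and 0.376 ± 0.0844 (difference -3.28). The somite boundary gene Lfng, a modifier of Notch receptors, differed by -1.85 on d4 and -2.91 on d6. The Notch ligand Dll1 differed by -2.26 on d4 and -1.82 on d6. The forkhead factor Foxc2, which acts with Foxc1 in somite formation, differed by -1.71 and -2.02. Pax3, Pax7, Lfng, Dll1 and Foxc2 would not have passed the limit of the table through KO libraries alone, so no p-values are given. Tcf15, a bHLH factor needed for an epithelial somite, was not called, with 7.52 ± 1.14 TPM in Ctrl and 11.4 ± 4.31 in KO on d6 (difference 0.47, adjusted p = 0.157). Meox2, Tbx6 and Msgn1 were not analysed here.

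Of 14 listed genes of the primitive streak and nascent mesoderm, 7 were in the table. On d4 1 of them was called higher in KO and 3 lower, and on d6 1 higher and 4 lower, with medians of -1.10 and -1.43. Over all genes 12.7% were higher and 32.7% lower on d4, and 17.9% and 34.3% on d6. At a constant of 0.1, 5 were called lower on d4, and without KO d6 replicate 1, 2 were called higher on d6. The gene called higher on both days was Fgf8, a growth factor of the streak that is also made in the neural plate. Its level in Ctrl stayed below 1 TPM on all days as a group mean, and in KO, through which alone it passed the limit of the table, it was 0.142 ± 0.0783 TPM on d0, 3.69 ± 0.936 on d4 and 13.6 ± 1.21 on d6. The difference was 1.45 on d4 and 2.97 on d6, given without a p-value for that reason. Wnt3a, a Wnt ligand of the streak and tailbud, went the other way, from 2.60 TPM on d0 to 14.2 ± 4.81 on d6 in Ctrl and from 1.80 to 0.373 ± 0.373 in KO (difference on d6 -3.45). The homeobox gene Cdx1 was highest on d0, at 195.5 ± 64.2 TPM in KO and 90.6 ± 12.4 in Ctrl (difference 1.05, adjusted p = 0.00174). Its difference was -2.80 on d4 and -2.44 on d6, so its direction changed after d0. Foxa2, which marks anterior streak and endoderm, differed by -1.74 on d4 and -1.43 on d6. Wnt3a and Foxa2 would not have passed the limit of the table through KO libraries alone, so no p-values are given for them. Gsc, the organizer homeobox gene, was not called, with 2.10 TPM in KO and 1.13 in Ctrl on d6.

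Among lateral plate and cardiac mesoderm genes 7 of 15 were in the table, of which 1 was called higher and 4 lower in KO on d6, and 1 higher and 2 lower on d4. The d4 counts are near the shares of all genes, 12.7% higher and 32.7% lower, while on d6 those shares were 17.9% and 34.3%. After quantile normalization, 2 were called lower on d6 and 1 on d4. Isl1, a LIM homeobox factor of cardiac progenitors and motor neurons, was the gene called higher, at 9.20 ± 0.999 TPM in KO against 3.61 ± 0.389 in Ctrl on d6 (difference 1.14, adjusted p = 3.21e-06). Pdgfra, a growth factor receptor of mesenchyme, was lower at 1.14 against 7.10 TPM (difference -1.91), and the cardiac and endodermal factor Gata4 at 6.17 against 18.8 TPM (difference -1.44, adjusted p = 8.48e-06). Pdgfra would not have passed the limit of the table through KO libraries alone, so no p-value is given for it. The median of the 7 genes was -0.18 on d4 and -0.79 on d6, against -0.16 and -0.14 for all genes.

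**Figure D2:**
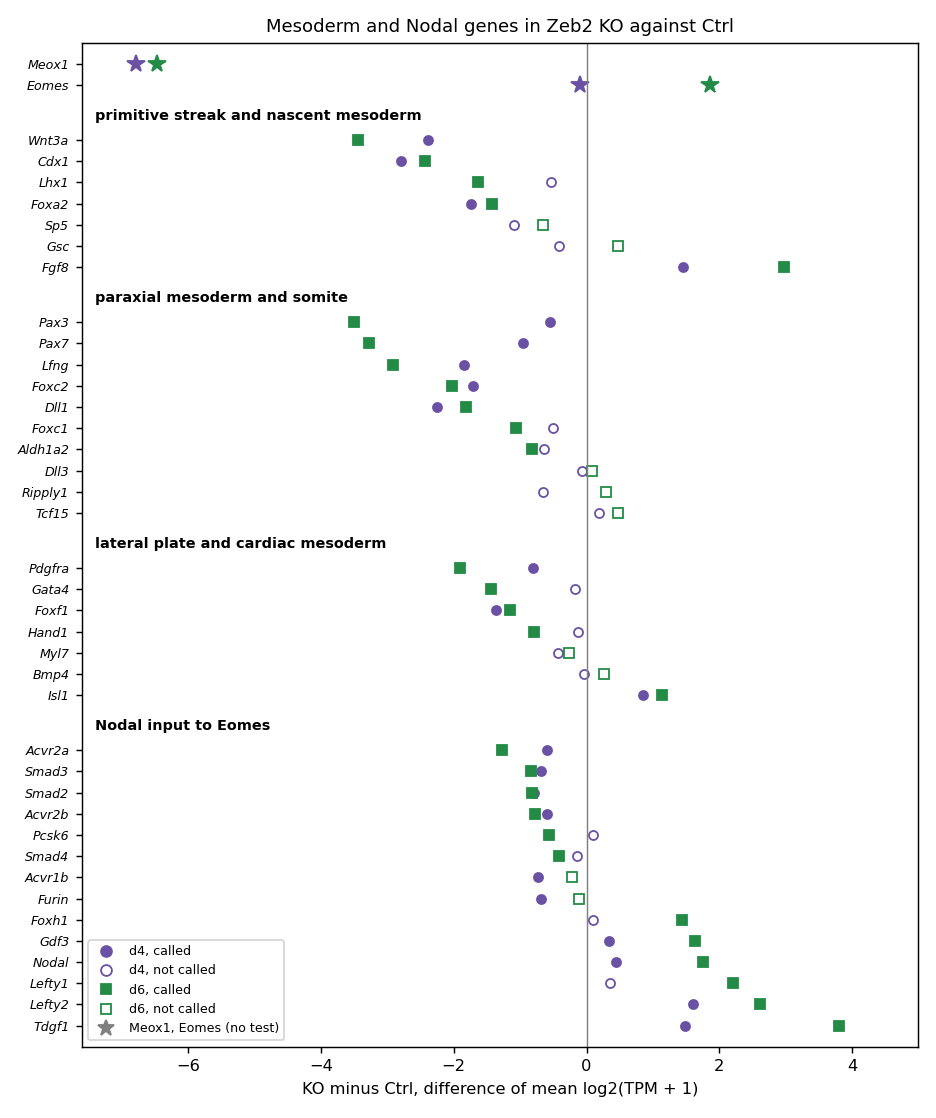
Difference between KO and Ctrl in mean log2(TPM + 1) on d4 (circles) and d6 (squares) for each gene of 4 lists found in the table, filled where the gene was called at an adjusted p below 0.01, with Meox1 and Eomes as untested stars at the top. Most streak and paraxial genes lie left of 0, Fgf8 and Isl1 lie right of it, and the Nodal genes lie on both sides, from -1.27 for Acvr2a to 3.81 for Tdgf1 on d6.

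The Nodal pathway lies upstream of Eomes in the embryo. Of 15 listed genes 14 were in the table. On d6 6 were called higher and 6 lower in KO, and on d4 4 higher and 6 lower, with medians of -0.17 and -0.03, against -0.14 and -0.16 for all genes. The 6 genes higher on d6 were the ligands Nodal and Gdf3, the co-receptor Tdgf1, the antagonists Lefty1 and Lefty2, which are themselves targets of the pathway, and Foxh1, the DNA-binding partner of its SMADs. Nodal was at 195, 188 and 179 TPM in KO on d0, d4 and d6, and at 166, 139 and 52.2 TPM in Ctrl (difference on d6 1.76, SE 0.0918, adjusted p = 1.31e-10). Tdgf1 reached 374 ± 126 TPM in KO against 25.1 ± 3.74 in Ctrl on d6 (difference 3.81, adjusted p = 1.07e-11). Lefty2 was at 123 ± 1.70 against 19.3 ± 1.87 TPM (difference 2.61, adjusted p = 4.74e-11), Lefty1 at 384 against 83.0 TPM, and Gdf3 at 94.3 against 29.97 TPM.

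The 6 genes called lower on d6 were Acvr2a, Acvr2b, Smad2, Smad3, Smad4 and Pcsk6. Acvr2a, a type II receptor, stood at 15.4 ± 0.299 TPM in KO and 38.7 ± 4.76 in Ctrl on d6 (difference -1.27, adjusted p = 3.75e-08), and Acvr2b differed by -0.78. The SMADs that carry the Nodal signal differed by -0.82 for Smad2 (adjusted p = 6.99e-08) and -0.84 for Smad3 (adjusted p = 6.89e-07), and the shared partner Smad4 by -0.42 (adjusted p = 6e-06). The convertase Pcsk6, which cleaves the Nodal precursor, differed by -0.56. The type I receptor Acvr1b and the convertase Furin were not called on d6.

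By day, these genes stood beside Eomes as follows. On d0 3 of the 14 genes were called higher in KO and 3 lower, against 10.6% and 16.4% of all genes. Lefty2 (difference 1.01), Foxh1 (0.93) and Gdf3 (0.54) were higher, and Acvr2b (-0.66), Lefty1 (-0.59) and Smad3 (-0.41) lower. On d4, when the Eomes levels of both genotypes overlapped, Lefty2 (difference 1.60), Tdgf1 (1.49), Nodal (0.44) and Gdf3 (0.34) were called higher in KO. Those called lower on d4 were Acvr1b, Acvr2a, Acvr2b, Furin, Smad2 and Smad3. From d4 to d6 in KO, where Eomes differed by 1.34, 2 of the 14 genes were called higher and 5 lower, against 21.5% and 19.9% of all genes, and their median was -0.06. The higher ones were Furin (0.90, adjusted p = 3.04e-06) and Smad3 (0.44, adjusted p = 0.000627). The lower ones were Gdf3 (-1.77, adjusted p = 2.89e-10), Lefty2 (-1.62, adjusted p = 3.67e-08), Pcsk6 (-1.41), Lefty1 (-0.60) and Smad2 (-0.25, adjusted p = 0.00828). Among the 7 not called were Nodal at -0.07 (adjusted p = 0.576), Foxh1 at 0.00 (adjusted p = 0.978) and Tdgf1 at 0.43 (adjusted p = 0.0333).

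The remaining T-box genes gave little to compare. Of 16 listed relatives of Eomes, 2 were in the table, Tbx3 and Mga, and neither was called on any day. On d6 Tbx3 differed by -0.35 (adjusted p = 0.0392) and Mga by 0.40 (adjusted p = 0.0192), and 1 of the 2 was called higher after rescaling by median ratios, after quantile normalization and in the fit of the recovered reads. T and Tbr1, the closest relatives of Eomes in the streak and the cortex, were not analysed here.

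Eomes is also expressed in other cell types, and their markers were counted beside it. Of 12 trophoblast genes in the table, 1 was called higher and 5 lower in KO on d6, near the 17.9% and 34.3% of all genes on that day, which also stand behind the next lists. The higher one, Bmp8b, would not have passed the limit of the table through Ctrl libraries alone. It was not called without Ctrl d6 replicate 1, and after quantile normalization 2 trophoblast genes were called higher and 3 lower. Their summed level was 1180 to 2230 TPM in the KO libraries and 1310 to 1970 TPM in the Ctrl libraries of d6, most of it from the keratins Krt8 and Krt18, so that the genotypes overlapped. Krt7 was at 6.55 TPM in KO and 28.8 in Ctrl, and Gata3 at 3.32 and 6.95. Cdx2 and Elf5 were not analysed here. Of 11 visceral endoderm genes, 1 was higher and 9 were lower on d6, with a median of -1.43. Their summed level was 915 to 1160 TPM in KO and 689 to 870 TPM in Ctrl, and most of it came from the gene called higher, Rhox5, at 974 TPM in KO and 493 in Ctrl. The secreted proteins that define the tissue were lower, Afp at 1.59 TPM in KO against 24.9 in Ctrl, Ttr at 4.70 against 24.4 and Apoa1 at 11.9 against 77.8. Of 7 genes of cortical intermediate progenitors, 1 was higher and 5 were lower on d6. Among the lower ones were Pax6 at 0.825 TPM in KO against 34.6 in Ctrl, Neurog1 at 0.793 against 30.8 and Neurod4 at 0.0898 against 8.62. The higher one was Btg2, at 197 TPM in KO against 127 in Ctrl. Neurod1 was not called on d6, at 12.35 against 14.31 TPM, and was called higher in KO on d4, at 18.9 against 9.26 TPM. Summed levels of this list were 174 to 255 TPM in KO and 223 to 252 TPM in Ctrl, with Btg2 the largest part in both. Several genes counted as lower on d6 would not have passed the limit of the table through KO libraries alone. These were Gata3, Hand1 and Krt7 of the trophoblast list and Dcx, Neurod4 and Neurog1 of the cortical list. In the visceral endoderm list they were Afp, Apob, Foxa2, Gata6, Sox7 and Ttr. The part of trophoblast, visceral endoderm or cortical progenitor cells in the Eomes level was not tested.

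Profiles over the 6 groups were compared as group means in percent of each gene's highest group, and likeness was the mean absolute difference over those groups. The gene nearest to Meox1 was Igfbp5, which encodes a binding protein of insulin-like growth factors, at 2.44 percentage points, with 78.8, 102 and 110 TPM in Ctrl d4 and 9.16 ± 0.545 TPM (SD, n = 3) in KO d4. Next came Cyp26a1 (3.26 points), the enzyme that breaks down retinoic acid, with 509 ± 82.8 TPM in Ctrl d4 and 5.73 ± 0.961 in KO d4. They were followed by Arg1 (4.59), the arginase of the urea cycle, Zfp703 (5.47), Rasl10b (6.17), Stra6 (6.40), a retinol transporter, Hoxd1 (6.58) and 4632428N05Rik (6.89). Arg1 and Zfp703 matched the on-off form of Meox1 most fully in KO, with at most 1.66 TPM for Zfp703 and 0.87 for Arg1 as d4 and d6 means against over 100 TPM in Ctrl.

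The neighbours of Eomes in this measure were less close. The nearest was Tsx (6.42 points), an X-linked testis gene, with 7.29 ± 1.14 TPM in KO d6 and 1.39 ± 0.385 in Ctrl d6. The next were Dusp1 (7.03), an immediate early phosphatase of MAP kinases, Psors1c2 (8.08), the processed pseudogene Gm9835 (8.31), Rp2h (8.78), Erbb3 (8.98), a receptor of the EGF family, 1190007I07Rik (9.13) and Aim2 (9.31). Ranked instead by the correlation of the 6 group means, 2 of the 8 genes named for Meox1, Arg1 and Zfp703, and 1 of the 8 for Eomes, Tsx, were named again.

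**Figure D3:**
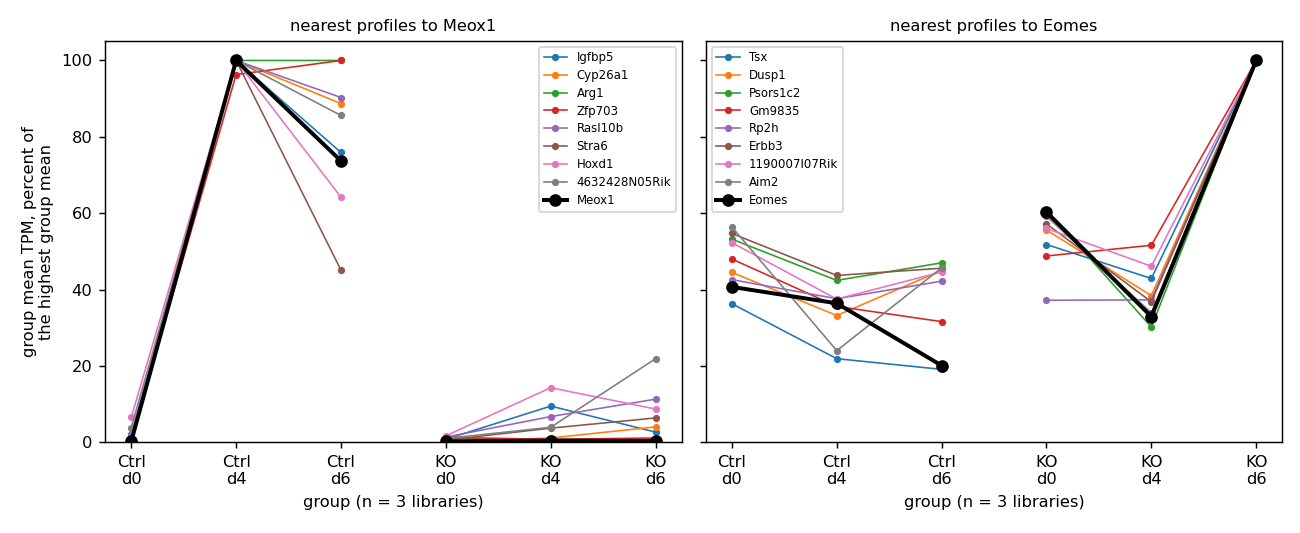
Group mean TPM in percent of each gene's highest group mean, for Meox1 (left, black) and Eomes (right, black) and the 8 genes nearest to each (coloured), over the 6 groups of 3 libraries. Each gene on the left is highest in Ctrl d4 or Ctrl d6, where its values run from 45.1% (Stra6 in Ctrl d6) to 100%, with at most 21.9% elsewhere, and those on the right share a peak in KO d6 but spread between 19.1% and 60.8% in the other groups.

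The genes beside Meox1 on chromosome 11 had much smaller differences. Of the 10 nearest genes in the table, 5 on each side and all within 319 kb, 1 was called higher and 4 lower in KO on d4, and their differences ran from -1.16 for Tmem106a to 0.72 for Rpl27-ps2, with a median of -0.14. On d6 1 was higher and 3 were lower, and the median was 0.08. Over all genes 12.7% were higher and 32.7% lower on d4, and 17.9% and 34.3% on d6, so these counts are near the background. Mpp2 and Mpp3, called lower on both days, would not have passed the limit of the table through KO libraries alone. Etv4, an ETS factor 108 kb away, differed by -0.05 on d4 (adjusted p = 0.888), and the phosphatase gene Dusp3, 93 kb away on the other side, by 0.40 (adjusted p = 0.0111).

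The 10 nearest listed genes of Eomes on chromosome 9 lay within 3044 kb. On d6 0 were called higher and 6 lower in KO, against 17.9% and 34.3% of all genes, with a median of -0.58. Values were higher in KO for 3 genes, Gm5921 (0.10), Gm9385 (0.21) and the long noncoding RNA Platr11, 77 kb away, with 64.1, 32.5 and 25.5 TPM in KO d6 against a mean of 20.1 ± 3.31 in Ctrl d6 (difference 0.88, adjusted p = 0.0135), which was not called. On the other side Golga4, a Golgi protein gene 62 kb away, differed by -0.52 (adjusted p = 0.00265) and the integrin gene Itga9, 272 kb away, by -1.33 (adjusted p = 3.02e-07). Tgfbr2, which encodes the type II receptor for TGF-beta, lay 2352 kb away and differed by -1.08. Tgfbr2 passed the limit of the table only through Ctrl d6, so no p-value is given. Gm16295, also among the 6 called lower, likewise passed it only through Ctrl d6.

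**Figure D4:**
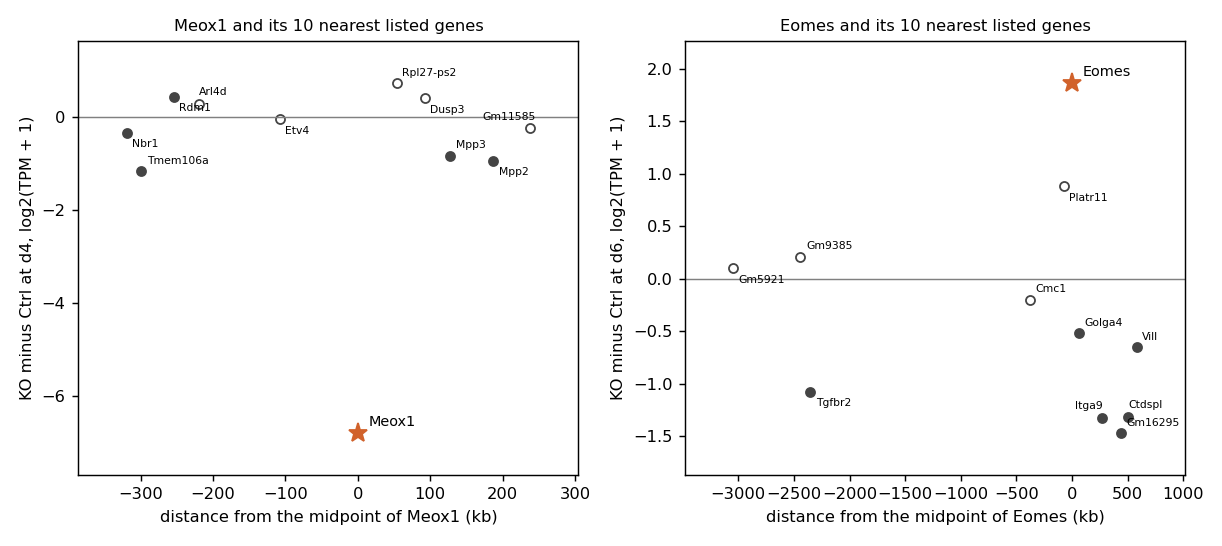
Difference between KO and Ctrl in mean log2(TPM + 1) against the distance in kb from the midpoint of Meox1 on d4 (left) and of Eomes on d6 (right), for the 10 nearest listed genes of each (circles, filled where called at an adjusted p below 0.01) and for Meox1 or Eomes itself (star, not tested). The neighbours of Meox1 lie between -1.16 and 0.72, far above its -6.78, and the neighbours of Eomes lie between -1.47 and 0.88, all below its 1.86.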

How the data were processed

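RNA of 18 libraries was sequenced as single reads (TruSeq). Per the submitters' processing notes and the study's methods, the authors mapped reads to GRCm38 with TopHat2 2.0.13, counted them per gene with featureCounts 1.4.6, converted counts to TPM, and removed short noncoding genes, genes without 5 TPM in at least 3 libraries, and the least variable genes. The deposited TPM table has 11046 rows, of which 81 repeat a gene. It also holds score columns of variance and variance over mean made by the authors, which were not used. Columns of samples outside the series numbered 0. The TPM carried 1 added read per gene, and all 10965 genes gave whole reads within 0.0001 reads.

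log2(TPM + 1) was fitted with limma 3.58.1 (R 4.3.3), with 6 group means, a mean-variance trend, two-sided tests and Benjamini-Hochberg adjustment over all genes. Because the file held TPM and not counts, limma took the place of the study's count test, and a voom fit of the recovered reads was an alternative. Folds on this scale understate changes of low genes. Positions came from GENCODE M21 and sequences from RefSeq. Steps were run in Python 3.11.15 and tested on simulated data. Meox1, Eomes and the gene lists were chosen with earlier results of these data known. Named were both genes, Zeb2, genes of the lists (streak, paraxial, lateral plate, Nodal, T-box, trophoblast, visceral endoderm, cortical progenitor), the 8 nearest profiles and the 5 nearest genes on each side. Alternatives were other constants, scalings, a minimum mean TPM of 10, a replicate block, fits of the compared groups alone, no trend, and leaving out each library.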

Additional observations from a re-analysis of the deposited data

Results flagged for a closer look

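In 12 cases listed genes differed between days in opposite directions in Ctrl and KO, with every library of the later day on one side of every library of the earlier day in one genotype and on the other side in the other. Of 40 genes examined, 3 met this from d0 to d4, 3 from d4 to d6 and 6 from d0 to d6, and of all 10965 genes 7.04%, 3.9% and 8.03% did. The difference between the genotypes was not tested. All values are differences of mean log2(TPM + 1) between days, and those called within a genotype by limma are named as called. From d4 to d6 Eomes differed by -0.62 in Ctrl (not called) and 1.34 in KO (given without a test, since Eomes entered the table only through KO d0 and KO d6). From d0 to d6 it differed by -0.73 in Ctrl (called, though tied to the choice of Eomes by its difference between the genotypes). In KO it differed by 0.62 over these days (given without a test). The Nodal co-receptor gene Tdgf1 differed from d0 to d4 by -1.08 in Ctrl (called) and 0.38 in KO (not called), from d4 to d6 by -1.89 (called) and 0.43 (not called), and from d0 to d6 by -2.97 and 0.80 (both called). Wnt3a differed from d0 to d4 by 1.37 in Ctrl and -0.74 in KO (not called), and from d0 to d6 by 2.11 in Ctrl and -1.06 in KO (called). Its Ctrl differences are given without a test, since Wnt3a entered the table only through Ctrl d4 and Ctrl d6. For Smad2, which carries the Nodal signal, the values were 0.39 in Ctrl and -0.31 in KO from d0 to d4 (both called), and 0.17 (not called) and -0.56 (called) from d0 to d6. Over the same 6 days the cardiac myosin gene Myl7 differed by 0.97 in Ctrl (called) and -0.73 in KO (not called), and Isl1 by -0.32 and 0.34 (neither called). The receptor gene Acvr1b differed from d4 to d6 by -0.30 in Ctrl (called) and 0.20 in KO (not called). Meox1 was not among these genes.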

How the results depend on the processing

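Both differences between KO and Ctrl on d6, which are descriptions, had the same sign under all alternatives that kept the gene. Eomes was not tested at a minimum mean TPM of 10. At a constant of 0.1 the KO minus Ctrl difference of Meox1 was -7.72 on d4 and -7.54 on d6, that of Eomes on d6 2.27, and the Eomes change in KO from d0 to d4 -0.87 (not tested). At a constant of 5 the KO minus Ctrl differences were -5.17, -4.78 and 1.08, and the change of Meox1 in Ctrl from d4 to d6 was -0.44 (called). The changes of Eomes from d0 to d6 were then -0.36 in Ctrl (lost) and 0.43 in KO (not tested). In the voom fit the differences were -7.89, -7.76 and 2.45, and Meox1 changed by -0.40 in Ctrl from d4 to d6 (called). Eomes changed by 0.72 in KO from d0 to d6 (not tested), and 7 listed genes were lower on d0 in place of 12. After quantile normalization Eomes differed between KO and Ctrl by 0.27 on d4 and 2.29 on d6 and changed in Ctrl by -0.93 from d0 to d4 and -0.82 from d4 to d6 (both called), and the Meox1 changes in KO reversed, to -0.18 by d4 and -0.43 by d6 relative to d0. With only the compared groups fitted, Eomes in Ctrl from d0 to d6 was -0.73 (lost). Rescaling by median ratios gave 183.9 TPM for Meox1 in Ctrl d4 and 6.751 for Eomes in KO d0. At a minimum mean TPM of 10, 6 listed genes were higher and 13 lower in KO on d4, in place of 10 and 29, and 13 lower on d6 in place of 38. Ranking profiles by correlation kept 2 genes for Meox1 and 1 for Eomes. The causes were not tested, apart from the minimum, by which fewer genes were tested.

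Leaving out 1 library at a time, the Eomes change in Ctrl from d0 to d4 was reversed without Ctrl d0 replicate 2 (0.01) or Ctrl d4 replicate 3 (0.04). Over all such repeats it ran from -0.34 to 0.04, the change in Ctrl by d6 from -0.96 to -0.58, and in KO the change by d4 from -0.82 to -0.65 and by d6 from 0.45 to 0.76. Counts for single lists moved by over 1.5 times in 96 of 1296 repeats.

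Libraries with the same replicate number were not paired in the main fit, as only 16 of 27 pairs had a correlation of deviations over 0.1 (range -0.0773 to 0.244). Yet for 15 of 18 libraries the mean correlation with libraries of other groups was highest for those of their own number. Deviations were thus in part shared by replicate number, and what the number stands for was not tested. With the replicate number as a block the KO minus Ctrl calls over all genes were 2780, 4853 and 5629 on d0, d4 and d6, against 2960, 4988 and 5731 without it, and the calls of Meox1 and Eomes between days that were tested stayed as they were. Depth limits Meox1 outside Ctrl d4 and d6, where a library held at most 7 reads.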
